A study of Mus musculus with 8 samples.

Results

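The tektin genes Tekt1, Tekt2, Tekt3, Tekt4 and Tekt5 were followed by RNA-seq in mouse testis. They were chosen by symbol, not by any measured value, and all 5 were present among the 17121 genes of the deposited table. Of the 8 libraries, 4 carried CTL as their genotype and 4 carried N6amt1-SKO, shortened here to SKO. N6AMT1 is a methyltransferase that acts on the translation termination factor eRF1, and the series concerns its part in the first meiotic prophase of spermatogenesis. The labels give no age, strain or Cre line, do not spell out SKO and do not say that each library came from its own animal, so any p-value speaks of library-to-library spread alone, and that spread may be technical. N6amt1 itself did not check the labels: its normalised values were 433 to 629 in CTL and 557 to 625 in SKO (log2 difference 0.19, limma adjusted p = 0.437), and the targeted stretch of the gene is not described.

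Tektins are coiled-coil proteins that polymerise into filaments inside the doublet microtubules of cilia and sperm flagella. In the A-tubule of each doublet they form a bundle that runs along the lumen, where other microtubule inner proteins also bind. In the testis the tektin genes are transcribed during meiosis and spermatid development, ahead of and during the building of the tail.

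The 5 genes lie on 4 chromosomes of GRCm38, with positions and exons from GENCODE M21. Tekt1 is on chromosome 11 (72344722 to 72362442, minus strand) and Tekt3 on the same chromosome (63061654 to 63094964, plus strand). Tekt2 is on chromosome 4 (126322121 to 126325688, minus strand), Tekt4 on chromosome 17 (25454615 to 25476602, plus strand) and Tekt5 on chromosome 16 (10357948 to 10395490, minus strand). Their longest annotated coding sequences hold 418, 430, 490, 447 and 557 codons in the order Tekt1 to Tekt5, so Tekt5 encodes the longest protein. The exons of Tekt2 overlap the opposite-strand transcript Gm12945, which is not in the table, over 20.8% of their bases. The library kit does not mark strand, so reads from that overlap cannot be assigned to one of the pair. No exon base of the other 4 tektins overlaps another annotated gene.

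Upstream sequences are shown for 3 members: Tekt1, the most abundant per length, Tekt5, the least abundant and the member with the largest difference, and Tekt2, which like Tekt1 holds RFX motifs. RFX factors are transcription factors of ciliary genes. Each stretch lies directly before a RefSeq transcript start (GRCm38.p6), with exon bases left out. The Tekt1 stretch is chr11:72361883-72362132, before a start that lies inside the span of a longer annotated transcript. The Tekt2 stretch is chr4:126325689-126325938 and the Tekt5 stretch chr16:10395491-10395705. All 3 are printed 5′ to 3′ on the minus strand, the strand of the genes. Capitals mark matches, on either strand, to GTTGCC (an RFX motif), TGACG (the core of the cyclic AMP response element, which CREM binds in spermatids) and GTAAACA (a forkhead site, as bound by FOXJ1).
Tekt1: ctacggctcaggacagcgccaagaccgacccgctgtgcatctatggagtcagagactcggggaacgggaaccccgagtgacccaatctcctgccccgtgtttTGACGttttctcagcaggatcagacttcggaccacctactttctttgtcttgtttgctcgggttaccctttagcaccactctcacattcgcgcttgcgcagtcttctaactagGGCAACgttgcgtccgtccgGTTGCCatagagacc
Tekt2: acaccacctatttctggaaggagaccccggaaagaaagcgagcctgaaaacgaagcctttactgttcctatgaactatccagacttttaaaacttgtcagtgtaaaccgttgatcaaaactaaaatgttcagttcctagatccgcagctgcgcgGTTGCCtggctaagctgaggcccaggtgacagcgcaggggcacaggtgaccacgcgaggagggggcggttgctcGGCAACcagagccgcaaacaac
Tekt5: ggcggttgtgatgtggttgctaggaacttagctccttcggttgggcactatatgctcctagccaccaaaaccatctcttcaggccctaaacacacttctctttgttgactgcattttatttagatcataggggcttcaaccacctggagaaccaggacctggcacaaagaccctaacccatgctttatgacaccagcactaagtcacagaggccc

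In the stretch of up to 250 bases before the first listed start, Tekt1 held 2 RFX motifs and 1 cyclic AMP element, and Tekt2 held 2 RFX motifs. In both genes the RFX motif nearest to the start began within 22 bases of it, at -15 in Tekt1 and at -22 in Tekt2. Before another listed start of Tekt1 there were TGACG matches at -236 and -20 and no RFX match. Tekt3 held 1 forkhead match, at -174, and neither Tekt4 nor Tekt5 held a match to these letters. Among 32851 promoter stretches of the same length, 10.4% held the RFX motif, 17.8% the cyclic AMP element and 3.17% the forkhead site. The matches are a description of letters, and the data here do not measure binding.

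Several facts of the libraries bear on the values. The deposited values were read counts scaled per library and rounded, with column totals of 94.2 to 103.1 M. In 6 libraries the scaling could be read from gaps between low values, which gave 40.6 to 70.1 M reads (M, mega). CTL 1 and CTL 2 showed no such gaps. In these 6 libraries between 3324 and 21418 reads lay behind each tektin value, so counting error was at most 1.73% (1 SD). The libraries fell into sets by 18S ribosomal RNA, with 0.72% to 0.97% of the values in CTL 3, CTL 4 and SKO 4 (higher 18S) and 0.17% to 0.27% in the other 5 (lower 18S). Testis is the labelled tissue, but the protocol for extraction speaks of heart ventricles. The heart genes Actc1, Nppa and Mb were not among the table's genes, and the other 5 heart genes examined summed to 2225 to 6870 per library, against 577755 to 1014030 for 10 spermatocyte genes.

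All 5 tektins were abundantly expressed, each above at least 86.6% of the 17066 genes tested in mean normalised value. Levels between genes were compared per kb of exon, as TMM-normalised value per kb. In CTL the order was Tekt1 (21755 ± 2403 per kb, SD, n = 4), Tekt3 (16082 ± 2397), Tekt4 (12339 ± 3818), Tekt2 (9789 ± 2330) and Tekt5 (7693 ± 1951). In SKO the order was the same: 16286 ± 3318 for Tekt1, 11719 ± 3622 for Tekt3, 9201 ± 1838 for Tekt4, 7309 ± 1573 for Tekt2 and 4705 ± 1365 for Tekt5 (per kb, SD, n = 4). The same order held within 6 of 8 libraries, and in the other 2, CTL 2 and SKO 1, Tekt4 stood above Tekt3. Tekt3 and Tekt4 were thus the neighbours whose order was not fixed, while Tekt1 was first and Tekt5 last in all 8.

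**Figure D1:**
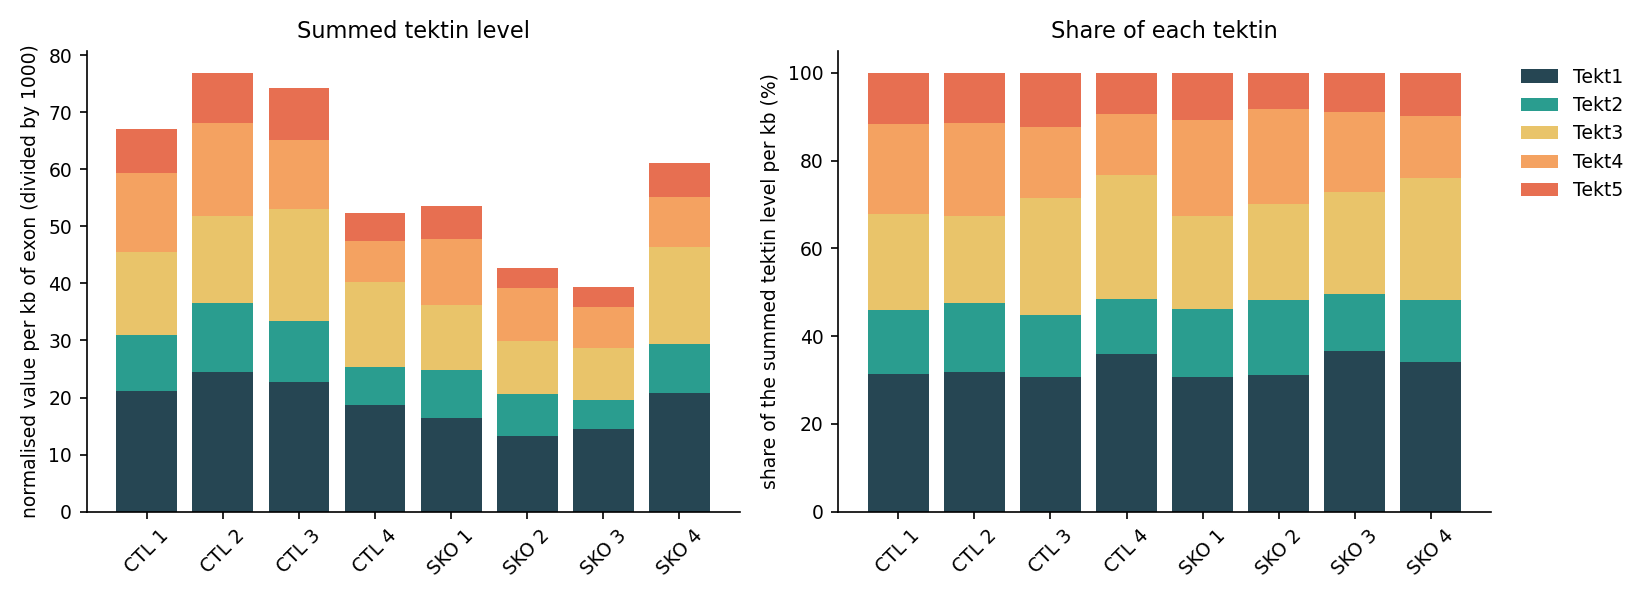
Left: TMM-normalised value per kb of exon (divided by 1000), stacked over the 5 tektins, in each of the 8 libraries. Right: share (%) of each tektin in that sum. The sum ranges from 39430 per kb in SKO 3 to 76915 per kb in CTL 2, while Tekt1 holds 30.6% to 36.7% in every library.

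The summed tektin level was 67658 ± 11033 per kb in CTL and 49219 ± 9953 per kb in SKO (SD, n = 4 each), and the highest library, CTL 2, held 1.95 times the lowest, SKO 3. CTL 4 (52336 per kb) lay below SKO 1 (53622) and SKO 4 (61064), so the sums overlapped. These are bulk samples, in which fewer cells of a type and less RNA per cell cannot be told apart.

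None of the 5 tektins passed the test between the genotype labels, where 19.9% of all genes did, 11.9% risen and 7.93% fallen (limma, adjusted p below 0.05). The split of all calls moved with the scaling, from 2038 risen and 1354 fallen to 4885 and 456 with column totals. With limma 3 of 5 had an unadjusted p below 0.05, as did 6321 of the 17066 genes tested. Each tektin had a lower mean in SKO, by a log2 difference between -0.38 and -0.71 with a median of -0.43, against a median of 0.04 over all genes tested, and the sign of Tekt1 to Tekt4 flipped when the spermatocyte genes were held level (described with those genes). The differences were smaller when column totals set the scale, at -0.14, -0.12, -0.20, -0.09 and -0.42 for Tekt1 to Tekt5, where the median of all genes was 0.33. They were -0.18, -0.16, -0.24, -0.13 and -0.46 with the round spermatid genes held level, where the median of all genes was 0.29. Of the 20 TMM-normalised SKO values, 19 lay below the CTL mean of their gene. The 5 genes were read in the same SKO libraries, so these values are not independent of each other. The share of such values over all genes was not computed, nor was this count under the other scalings. The groups overlapped for every tektin, whereas they did not overlap for 26.1% of all genes.

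**Figure D2:**
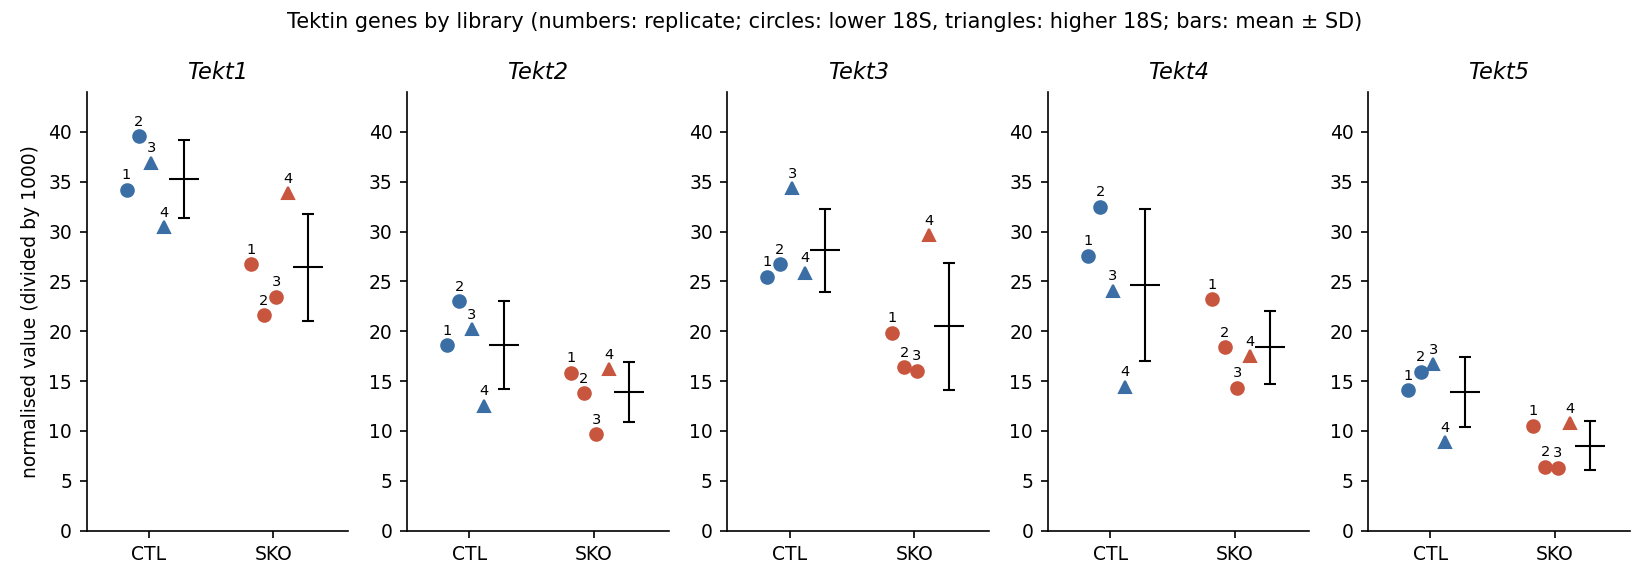
TMM-normalised values (divided by 1000) of the 5 tektins in CTL and SKO libraries, with replicate numbers, circles for lower 18S and triangles for higher 18S libraries, and bars for the mean ± SD (n = 4). CTL 4 is the lowest CTL library for Tekt1, Tekt2, Tekt4 and Tekt5, and SKO 4 is the highest SKO library for all but Tekt4.

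Tekt1, a filament subunit found in cilia and sperm tails alike, had normalised values of 34190, 39589.6, 36902 and 30465 across CTL 1 to 4, and of 26727, 21617, 23476 and 33842 across SKO 1 to 4. SKO 1 to 3 lay below every CTL library, and SKO 4 lay among them. The SKO to CTL ratio was 0.741 with an interval of 0.572 to 0.961 (95%, for this gene alone). The limma adjusted p was 0.093, and the exact two-sided permutation p was 0.0571, where 0.0286 is the smallest that 4 against 4 libraries allow.

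Tekt2, whose loss in mice leaves sperm with bent tails and males infertile, had 18624, 23028, 20198 and 12547 in CTL 1 to 4. In SKO 1 to 4 it had 15838, 13790.1, 9699 and 16219. CTL 4 was lower than 3 of the SKO libraries, and SKO 3 alone lay below all of CTL. The ratio was 0.75 with an interval of 0.528 to 1.07, a limma adjusted p of 0.211 and an exact two-sided permutation p of 0.171.

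Tekt3, whose loss in mice lowers sperm motility, had 25479, 26729, 34348 and 25890.0 across CTL 1 to 4, then 19859, 16421, 16032 and 29625 across SKO 1 to 4. The CTL values apart from CTL 3 lay close together, SKO 1 to 3 were below all of them, and SKO 4 was above 3 of them. The ratio was 0.711 with an interval of 0.514 to 0.984, a limma adjusted p of 0.119 and an exact two-sided permutation p of 0.114.

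Tekt4, whose loss in mice gives an uncoordinated tail beat and low fertility, had the widest CTL spread, with 27559.8, 32484, 24083 and 14440.3 in CTL 1 to 4. In SKO 1 to 4 it had 23226, 18419.8, 14359 and 17492. CTL 4 and SKO 3 were nearly equal and were the lowest of all. The ratio was 0.767 with an interval of 0.519 to 1.13, a limma adjusted p of 0.299 and an exact two-sided permutation p of 0.229.

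Tekt5, a tektin of the sperm flagellum, had the largest difference of the family, with 14105, 15956, 16673 and 8868 across CTL 1 to 4, then 10511, 6430.4, 6306 and 10762.5 across SKO 1 to 4. SKO 2 and SKO 3 lay below all of CTL, and SKO 1 and SKO 4 lay in the gap between CTL 4 and the other CTL libraries. The ratio was 0.609 with an interval of 0.409 to 0.909, a limma adjusted p of 0.0756 and an exact two-sided permutation p of 0.0857.

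The comparison was also made within the sets of libraries by 18S. Among the 5 lower 18S libraries (CTL 1 and 2, SKO 1 to 3) 4 of 5 tektins fell, where 13.4% of all genes did (limma, adjusted p below 0.05). There Tekt1 fell by 0.63, Tekt3 by 0.59, Tekt4 by 0.71 and Tekt5 by 1.00 on the log2 scale (limma adjusted p = 0.0196, 0.0219, 0.0419 and 0.0252), while Tekt2 had -0.69 and did not pass (limma adjusted p = 0.0524). In this set the elongating spermatid genes described below also differed. They summed to 590177 and 714005 in CTL 1 and 2, and to 603023, 184542 and 183854 in SKO 1 to 3. The part of this in the tektin differences was not tested. Among the 3 higher 18S libraries the SKO arm is 1 library, SKO 4, so the values there are a description with no test of the label. SKO 4 minus the mean of CTL 3 and CTL 4 was 0.02, 0.03, -0.00, -0.09 and -0.17 on the log2 scale for Tekt1 to Tekt5. A limma fit that lends SKO 4 the spread of the CTL libraries called 1.45% of all genes fallen, so its count of 0 of 5 tektins says little.

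The gaps between the sets (higher minus lower), from an interaction term in limma added after seeing the data, were between 0.58 and 0.82 on the log2 scale with standard errors of 0.24 to 0.50. They rest on SKO 4 as the single SKO library with higher 18S, and that term passed for 1 of 17066 genes, so whether the difference depends on the set could not be decided with these libraries.

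Leaving out 1 library also changed the calls. Without CTL 4, Tekt4 (-0.65, limma adjusted p = 0.0427) and Tekt5 (-0.95, limma adjusted p = 0.0271) fell, where 8.53% of all genes did. Without SKO 4, Tekt1 (-0.56, limma adjusted p = 0.0327) and Tekt3 (-0.68, limma adjusted p = 0.0234) fell, where 8.94% of all genes did. Without both of these libraries, a comparison chosen after seeing the data, 4 of 5 fell against 9.15% of all genes, with Tekt5 at -1.05 (limma adjusted p = 0.0222) and Tekt4 not passing at -0.60 (limma adjusted p = 0.0676).

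**Figure D3:**
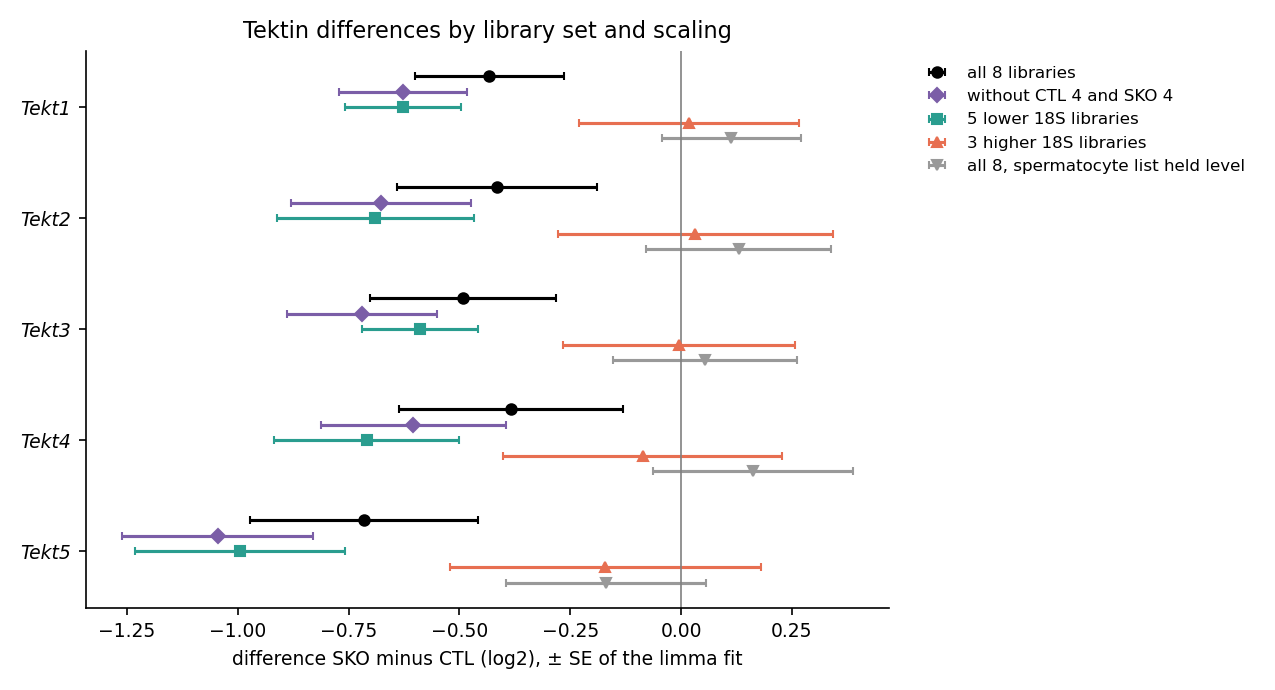
Log2 difference SKO minus CTL of each tektin with its SE, for all 8 libraries, without CTL 4 and SKO 4, within each 18S set, and for all 8 with the spermatocyte list held level. The values without CTL 4 and SKO 4 and those of the lower 18S libraries lie between -0.59 and -1.05, those of the higher 18S libraries between -0.17 and 0.03.

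Shares within a library do not depend on how that library was scaled. Tekt5 made up 11.6%, 11.5%, 12.4% and 9.38% of the summed tektin level per kb across CTL 1 to 4, and 10.8%, 8.32%, 8.85% and 9.75% across SKO 1 to 4. Its mean share was thus 11.2 ± 1.3% in CTL and 9.44 ± 1.11% in SKO (SD, n = 4 each), with CTL 4 inside the SKO range. The other mean shares moved by about 1 percentage point or less: 32.4% and 33.2% for Tekt1, 14.3% and 14.9% for Tekt2, 24.1% and 23.5% for Tekt3 and 17.9% and 19.0% for Tekt4 (CTL, then SKO).

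Of the 10 ratios between 2 tektins, 1 did not overlap between the groups, a smaller share than the 26.1% of single genes that did not, and the share over other gene pairs was not computed. It was that of Tekt2 to Tekt5, at 0.33, 0.46, 0.20 and 0.43 across CTL 1 to 4, then 0.52, 1.03, 0.55 and 0.52 across SKO 1 to 4 (log2 of the values per kb). Other ratios followed the 18S sets instead of the genotype labels. The ratio of Tekt3 to Tekt4 was 0.70, 1.03 and 0.95 in CTL 3, CTL 4 and SKO 4, against -0.09 to 0.35 in the 5 lower 18S libraries. The ratios of Tekt1 to Tekt3, Tekt2 to Tekt3, Tekt2 to Tekt4 and Tekt4 to Tekt5 did not overlap between the 18S sets either. That of Tekt1 to Tekt3, for example, was 0.21, 0.34 and 0.30 in CTL 3, CTL 4 and SKO 4, against 0.50 to 0.67 in the lower 18S libraries. How many ratios between other genes do so was not computed. All these ratios were singled out after their values were seen and were not tested.

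Other microtubule inner proteins were taken from a list of 41 genes, of which 35 matched a row of the table. Cfap68, Cfap90, Cfap141, Cimip2b, Spmip5 and Spmip8 were not matched. Of the 35, 7 fell and 0 rose (limma, 20.0% fallen against 7.93% of all genes). At an unadjusted limma p below 0.05 were 11 of the 35, against 6321 of the 17066 genes tested. Among all genes 47.5% had a negative difference, and among these 35 the number was 30. Their median log2 difference was -0.33, against -0.43 for the tektins and 0.04 for all genes. That median was -0.19 without CTL 2, -0.59 without CTL 4 and 0.0044 without both CTL 1 and CTL 2. It was -0.04 with column totals, -0.08 with the round spermatid genes held level and 0.22 with the spermatocyte genes held level, and -0.71 in the lower 18S set against 0.16 in the other. Only 3 of the 35 lay below Tekt5, and 24 lay above Tekt4, the tektin with the smallest difference.

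The largest fall was that of Cfap52, a WD-repeat protein of the doublet, from 17188 ± 4702 to 9070 ± 1026 (SD, n = 4 each; 1.86-fold lower, limma adjusted p = 0.017). The EF-hand protein genes Efhb and Efcab6 also fell, by 0.79 and 0.68 on the log2 scale, as did Nme7, by 0.69, which encodes a nucleoside diphosphate kinase family member, with limma adjusted p-values of 0.0141 to 0.0336. Efhc2 and Cfap53 were also among the genes that fell. Mns1, the gene with the highest normalised value among those that did not pass, had means of 36417 ± 2179 and 29264 ± 8856 (SD over 4 libraries per label, adjusted p = 0.208 by limma). Tektl1, a tektin-like protein listed as Ccdc105, had means of 11454 ± 3669 and 8629 ± 1226 (SD over 4 libraries per label, adjusted p = 0.356 by limma). Tektip1, whose product binds the tektin bundle, was scarce, at 45.9 ± 29.1 and 73.1 ± 37.7 (SD over 4 libraries per label, adjusted p = 0.37 by limma).

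The count of 7 fallen genes rested on several libraries. It was 3 without CTL 3, 2 without SKO 1 and 4 without SKO 2, where 3.18%, 2.74% and 2.95% of all genes fell. It was 12 without SKO 4, where 8.94% of all genes fell, and 0 without SKO 3, where 0 of all genes fell either (limma, with 8 of 35 and 4788 of all genes at an unadjusted p below 0.05). It was 4 when column totals set the scale (2.67% of all genes). It was 0 with the round spermatid genes or the spermatocyte genes held level, where 0% and 0.0762% of all genes fell. At an unadjusted limma p below 0.05 were 0 and 1 of 35 there, against 857 and 8573 of all genes. Within the lower 18S libraries 19 fell, where 13.4% of all genes did.

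**Figure D4:**
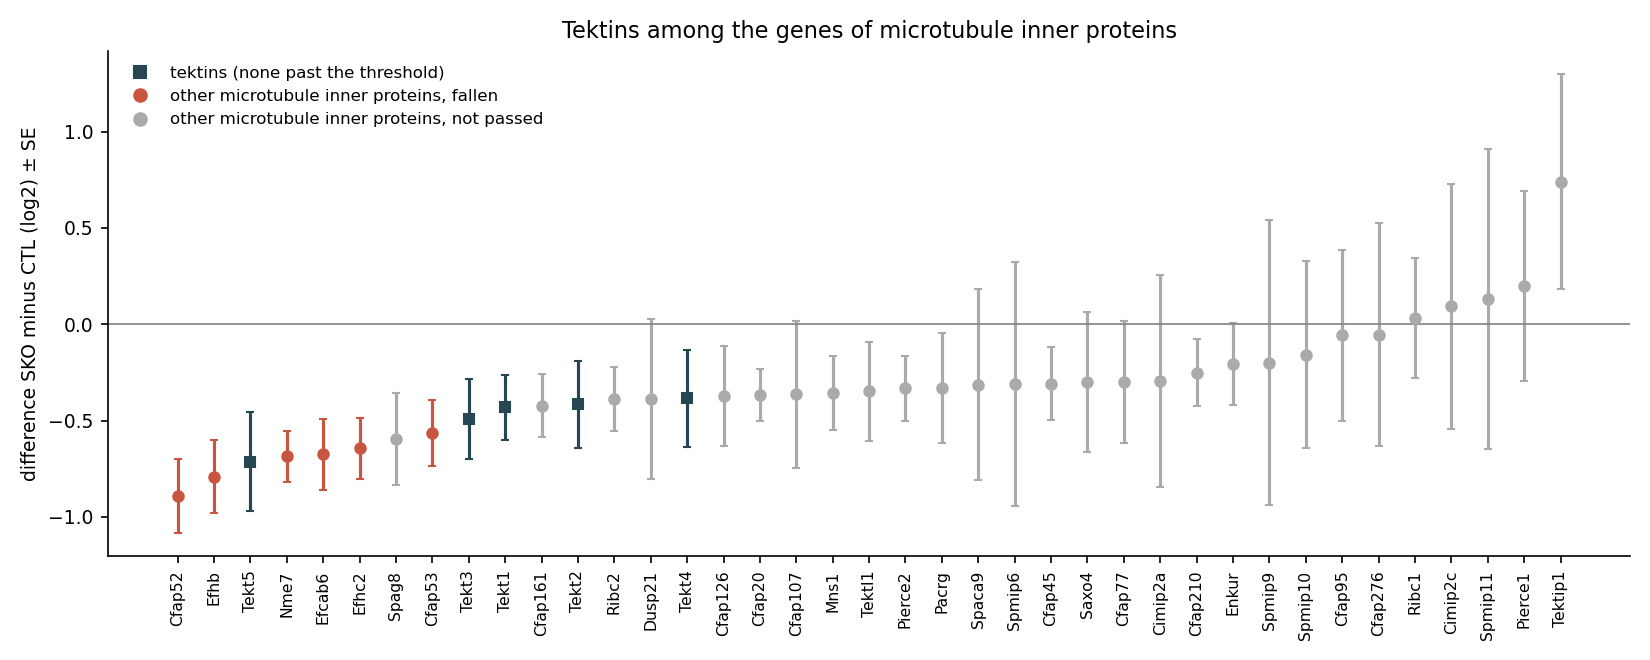
Log2 difference SKO minus CTL with its SE for the 5 tektins (squares) and other microtubule inner protein genes (circles), ordered by the difference. The tektins lie between -0.38 and -0.71, in the lower part of the list, and red circles mark the other genes past the threshold.

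Markers of the germ cells that express tektins varied between the libraries as well. Of 10 genes of pachytene and later spermatocytes 6 fell and 0 rose, where 7.93% of all genes fell (limma, median log2 difference -0.57), with summed values of 737550 to 1014030 in CTL and 577755 to 698593 in SKO. The list's highest normalised values were those of the lactate dehydrogenase gene Ldhc (277533 ± 92373 and 204355 ± 35776 as mean ± SD, adjusted p = 0.285 by limma). When the spermatocyte list was held level in all libraries, a scaling added after seeing the data, the tektin differences were 0.11, 0.13, 0.05, 0.16 and -0.17 for Tekt1 to Tekt5 (limma adjusted p = 0.586 to 0.856), with the median of all genes at 0.58. Tekt1 to Tekt4 thus changed sign under that scaling and Tekt5 did not.

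Of 10 round spermatid genes 0 passed (limma, 1 with an unadjusted p below 0.05, median -0.18), with sums of 49140 to 154934 in CTL and 45165.0 to 102855 in SKO. The spermatid kinase gene Tssk1, close to Zpbp in normalised value over both labels, had 17182 ± 10903 and 13615 ± 6537 (SD over 4 libraries per label, adjusted p = 0.842 by limma). Of 10 elongating spermatid genes 0 passed too (limma, 0 with an unadjusted p below 0.05, median -0.11). Their sums spread 8.30-fold over the libraries, from 86073 in CTL 4 to 714005 in CTL 2, against 1.95-fold for the tektins. Tnp2, a transition protein gene and the one with the highest normalised values, had 86706 ± 56450 and 61971 ± 54395 (SD over 4 libraries per label, adjusted p = 0.714 by limma). CTL 4, the library lowest in most tektins among CTL, was thus the lowest of all in elongating spermatid genes. SKO 1, the SKO library with the most Tekt4, had a sum of 603023. SKO 4, the SKO library highest in Tekt1, Tekt2, Tekt3 and Tekt5, went the other way, with the lowest elongating spermatid sum of the SKO libraries (161592) and the lowest round spermatid sum of all 8 (45165.0). The part of these spermatid differences in the tektin values was not tested.

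Markers of other cells were read beside these, where 11.9% of all genes rose, a share that the scaling moved widely (0 to 7371 genes risen). Of 10 Sertoli cell genes 8 rose and 0 fell (median 0.98, sums 59481 to 149235 in CTL and 138125 to 299914 in SKO), led in level by Clu at 63806 ± 41334 and 160089 ± 60120 (SD over 4 libraries per label, adjusted p = 0.0651 by limma). Of 9 spermatogonial genes 4 rose and 0 fell (median 0.59, sums 72137 to 118579 and 94204 to 113911). Dmrtb1, highest in normalised value, had a lower mean in SKO (54587 in CTL and 41875 in SKO, adjusted p = 0.518 by limma), while 7 of the 9 had a positive difference. Of 8 Leydig cell genes 2 rose and 0 fell, and 5 had a positive difference (median 0.23, sums 48861 to 64274 and 44163 to 81050.3). Cyp17a1 was highest in CTL in mean normalised value and lower in SKO (19479 and 10634.5, adjusted p = 0.0686 by limma). Hsd3b1 was highest in SKO (6533 in CTL and 13355 in SKO). Of 8 macrophage genes, led by Mrc1, 0 passed (limma, median 0.46, sums 8378 to 10204 and 7839 to 14660). Of these 8, 3 had an unadjusted limma p below 0.05, as did 6321 of the 17066 genes tested. Of the 5 heart muscle genes examined, 2 rose, Tnni3 (1391 to 4041) and Tnnt2 (403 to 816), and 0 fell (median 1.01, sums 2225 to 2875 and 4279 to 6870).

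Multiciliated cells, which also make tektins, were read by 7 genes, of which Mcidas, Gmnc, Myb, Tmem212 and Sec14l3 were not among those of the table. Foxj1, which germ cells also express, had 18212 ± 10720 and 12774 ± 5856 (SD over 4 libraries per label, adjusted p = 0.424 by limma), and Dynlrb2, at 2906 ± 1036 and 2637 ± 569, did not pass either. Of 9 epididymis and efferent duct genes 3 were in the table and 2 were tested, Rnase10 and Pax8, with 0 passed (limma, 0 with an unadjusted p below 0.05; median -0.32, sums 555 to 906 and 424 to 700).

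**Figure D5:**
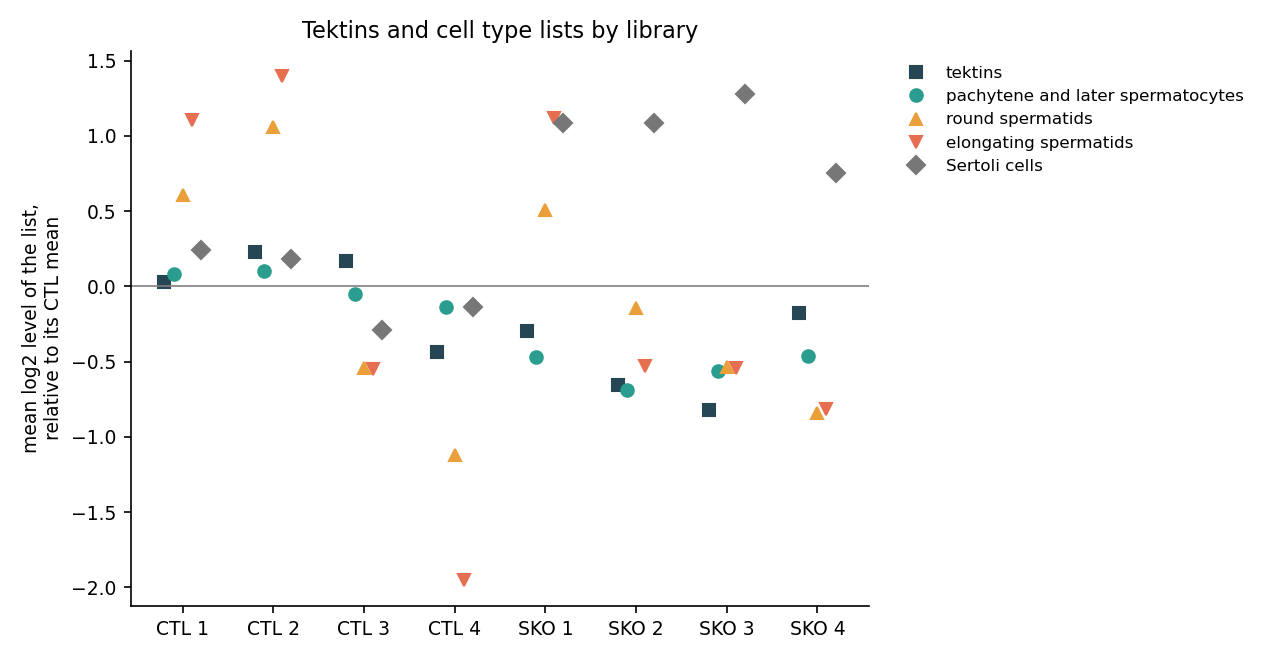
Mean log2 level of the 5 tektins and of 4 cell type lists in each library, relative to the list's CTL mean. The elongating spermatid list has its lowest point in CTL 4 and its highest in CTL 2, and the Sertoli list lies higher in all 4 SKO libraries than in any CTL library.

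The genes most like each tektin were those with the highest Pearson correlation of log2 values over the 8 libraries, which share depth and scaling, among 15134 named genes. For Tekt1 they were Ribc2, itself a microtubule inner protein gene (r = 0.99), Ift57, an intraflagellar transport gene (r = 0.99), and Ccdc103, a dynein arm attachment gene (r = 0.98). Those of Tekt2 were Dusp10, Mroh5 and Umodl1 (r = 0.98 each). Those of Tekt3 were Enkd1 (r = 0.99), Rad51d and Pbx4 (r = 0.98 each). Those of Tekt4 were Mical2, Prr30 and Pcdha12 (r = 0.99 each), and those of Tekt5 were Ankfn1, the alpha tubulin gene Tuba4a (r = 0.99 each) and the kinase gene Dyrk4 (r = 0.98). No gene was named for more than 1 tektin. The log2 differences of these genes lay between -0.21 (Rad51d) and -0.99 (Pcdha12). Their shared direction largely follows from how they were chosen, because the correlation was taken with the difference between the labels left in.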

How the data were processed

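Total RNA of mouse testis was measured by RNA-seq in 8 libraries. HISAT2 2.0.5, featureCounts 1.5.0-p3, fastp and CASAVA are named, with build mm10, in the submitters' processing notes. The deposited table holds a score: per-library rescaled and rounded read counts, made by the authors, as gaps between low values show. Groups and replicate numbers came from the sample titles. Because the values are not raw counts, a count test was not used, as the design provided. The low-value filter asked for 25 or more in 4 or more libraries and left 17066 of 17121 genes. After TMM scaling (trims of 30% and 5%), log2(value + 5) was modelled by limma 3.58.1 (R 4.3.3) using a variance trend, tested on simulated data. Log2 differences are on that scale, which understates changes of low genes. Ratios are 2 to the power of the log2 difference. All tests were two-sided, and Benjamini-Hochberg adjusted p-values over every gene were held to 0.05. The lowest chi-square per gene between 2 libraries was 47.9, so none were duplicates. Exon lengths came from GENCODE M21 and upstream sequences from RefSeq. Named genes were the tektins, N6amt1, up to 5 risen and 5 fallen inner protein genes with the largest changes and the most abundant that did not pass, the 3 most similar genes per tektin and the most abundant gene of each marker list. Efhc2, Cfap53, Tektl1, Tektip1 and some markers were named beyond that rule, after their values were seen. The values of 1 inner protein gene are not reported here. The members and lists were chosen with earlier results of these data known. Alternatives were other scalings, added constants, filters, variance models, a replicate block and subsets of libraries.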

Additional observations from a re-analysis of the deposited data

Results flagged for a closer look

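One value stood far from the others of its group. Tekt3 in CTL 3 had a normalised value of 34348, above 25479, 26729 and 25890.0 in the other CTL libraries, and the gap to the nearest of them was 0.859 of the whole range, over Dixon's limit for 4 samples. It was the single such value among 20 groups of 4 (values and shares of 5 tektins in each label), and chance flags about 1 in 20. CTL 3 is one of the higher 18S libraries. Without CTL 3 the log2 difference of Tekt3 was -0.45 instead of -0.49 (limma adjusted p = 0.23).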

How the results depend on the processing

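The log2 difference of each tektin was recomputed under 25 alternatives. It was negative in 23 for Tekt1 and Tekt2, 24 for Tekt3 and Tekt4 and 25 for Tekt5, and passed the threshold in 3, 1, 3, 2 and 3 of them, Tekt1 to Tekt5. The tally of signs includes settings that could not alter the difference: the replicate block, no variance trend and robust moderation. Other added constants and no filter hardly moved it, so the tally overstates how stable the sign was. Among the lower 18S libraries the differences of Tekt1, Tekt3, Tekt4 and Tekt5 were -0.63, -0.59, -0.71 and -0.996, and without CTL 4 and SKO 4 those of Tekt1, Tekt2, Tekt3 and Tekt5 were -0.63, -0.68, -0.72 and -1.05, so that 4 tektins and 19 or 15 inner protein genes fell. Signs reversed for Tekt1 and Tekt2 among the higher 18S libraries, with SKO 4 alone in its arm (0.019 and 0.032), where 0 inner protein genes fell, and for Tekt1 to Tekt4 with the spermatocyte list held level (0.11, 0.13, 0.054 and 0.16), where 0 inner protein genes fell. Column totals gave 4 inner protein genes fallen and the round spermatid list held level gave 0. Leaving out 1 library gave ranges of -0.56 to -0.34 for Tekt1, -0.62 to -0.25 for Tekt2, -0.68 to -0.39 for Tekt3, -0.65 to -0.27 for Tekt4 and -0.95 to -0.59 for Tekt5, with 0 to 2 tektins, 0 to 12 inner protein genes, 0 to 1525 of all genes fallen and 0 to 2451 of all genes risen, the zeros over all genes and inner protein genes being those without SKO 3. Genes risen over the whole table numbered 4885 with column totals, 0 with the round spermatid list held, 3202 among lower and 40 among higher 18S libraries and 7371 with the spermatocyte list held. Genes fallen numbered 456, 0, 2291, 247 and 13 under these settings, 2326 without CTL 1 and CTL 2 and 2210 with the 18S set as covariate. The median of all genes was 0.33, 0.29 and 0.58 with column totals, the round spermatid list and the spermatocyte list. Apart from the alternatives named, the causes were not tested. Deviations from the group mean, over the genes tested, correlated at 0.67, 0.01, 0.08 and 0.23 between same-numbered libraries (numbers 1 to 4). Only CTL 1 had the SKO library of its own number as the best match. The numbers were therefore not taken to pair the libraries. A replicate block cannot change the differences (-0.43, -0.42, -0.49, -0.38 and -0.71), because each number holds both a CTL and an SKO library. With that block 0 tektins passed, and 2162 genes rose and 1701 fell. The 2 library sets by 18S hold 5 and 3 libraries, which limits the precision of values within them.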
